A study of Mus musculus with 30 samples.

Results

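The genes described are 5 of the interleukin-6 family, the cytokines Il6, Osm (oncostatin M) and Lif (leukemia inhibitory factor), and the receptor chains Il6ra and Il6st. They were taken by symbol from the array's probe annotation, each read from its brightest probe set on average (30 arrays, probe sets with 1 gene symbol), and all 5 of 5 were found among 18194 measured genes. The study profiled CD11b+ mouse myeloid cells, enriched with magnetic beads, on 30 Affymetrix MOE430 2.0 arrays in 10 groups of 3. Its purpose was to set tumor-induced myeloid-derived suppressor cells beside cells of healthy spleen, and suppressor cells grown from bone marrow beside fresh marrow.

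The tumor-bearing groups came from BALB/c mice with C26-GM, whose spleen and tumor infiltrate were both sampled, from BALB/c mice with 4T1 (tumor), and from C57BL/6 mice with EL-4 (tumor) or MCA203 (tumor). C26-GM is a colon carcinoma line that makes GM-CSF, 4T1 a mammary carcinoma line, EL-4 a T-cell lymphoma line and MCA203 a fibrosarcoma line. Their references were CD11b+ cells from healthy spleens of BALB/c and of C57BL/6 mice. BALB/c bone marrow cultured for 4 days with GM-CSF+IL-6 or with GM-CSF+G-CSF was set against CD11b+ cells of fresh BALB/c marrow. All 10 groups share the CD11b+ enrichment. The labels do not give the age of the mice, do not say whether the 3 arrays of a group came from separate animals, and name no tumor-free tissue other than spleen and marrow, so tumor and organ cannot be told apart in any comparison of tumor cells with spleen cells.

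IL-6, oncostatin M and LIF all signal through gp130, the protein encoded by Il6st, which nearly every cell carries. IL-6 first binds its own receptor chain, encoded by Il6ra, which is made mainly by leukocytes and hepatocytes and can be shed from the cell surface. LIF acts through a pair of LIFR and gp130, and mouse oncostatin M acts mainly through a pair of OSMR and gp130. The receptor pairs activate JAK kinases and STAT3, and STAT3 induces Socs3, a feedback inhibitor that binds gp130. In tumor-bearing hosts IL-6 and STAT3 are known to drive the expansion of suppressive myeloid cells.

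The promoter windows of Il6 and Lif are shown because these are the ligand genes that separated the tumor models. Each runs from 250 bases before to 50 bases after the start of the RefSeq transcript (GRCm38.p6), 5′ to 3′ on the gene's strand. The Il6 window lies at chr5:30012864-30013163 (plus strand) and the Lif window at chr11:4257318-4257617 (plus strand). Capitals mark matches, on either strand, to GGGA and CC with any 4 bases between them (NF-kB), or to the letters TTGCNNAA (C/EBP), TTCNNNGAA (STAT) or TGANTCA (AP-1).
Il6: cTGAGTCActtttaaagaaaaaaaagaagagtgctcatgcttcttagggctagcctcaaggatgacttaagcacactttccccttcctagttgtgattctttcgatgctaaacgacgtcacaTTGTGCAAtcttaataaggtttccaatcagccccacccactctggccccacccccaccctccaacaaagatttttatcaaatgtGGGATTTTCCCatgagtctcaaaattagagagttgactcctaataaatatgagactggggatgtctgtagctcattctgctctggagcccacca
Lif: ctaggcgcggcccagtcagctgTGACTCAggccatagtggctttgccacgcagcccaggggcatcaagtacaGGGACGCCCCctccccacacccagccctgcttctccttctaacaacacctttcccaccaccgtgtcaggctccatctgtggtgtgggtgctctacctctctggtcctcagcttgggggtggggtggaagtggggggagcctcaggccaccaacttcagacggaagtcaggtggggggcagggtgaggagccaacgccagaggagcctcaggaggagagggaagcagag
The Il6 window held 2 NF-kB matches on opposite strands that overlap between positions -44 and -34, 1 C/EBP match at -128 to -121 and 1 AP-1 match at -249 to -243, counted from the transcript start. The Lif window held 1 NF-kB match at -178 to -169 and 1 AP-1 match at -228 to -222. Among 32851 such windows of all genes, 20.7% held the NF-kB letters, 10.8% the C/EBP letters, 8.3% the STAT letters and 7.81% the AP-1 letters. The Il6ra window held 1 NF-kB match and the Il6st window none of the letters, and Osm was matched to no window. Osm and Lif are neighbouring protein-coding genes on chromosome 11.

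Several arrays stood apart, and this touches the results below. The 6 C26-GM arrays had Xist levels of 5.15 to 6.47 and levels of the Y-linked Eif2s3y of 8.11 to 8.95 (log2), where the other 24 arrays had 10.06 to 11.12 and 2.16 to 2.70, so these groups also differ from their healthy references in sex-linked transcripts. The third C26-GM tumor array had an actin signal 2.42 log2 units higher at the 3′ than at the 5′ end, against 0.01 to 0.68 on the other 29 arrays, a sign of shortened RNA. Of the 6 culture arrays, 4 had a narrow spread of values (interquartile range 2.54 to 2.60) and 2 a wide one (3.28 to 3.37). The C57BL/6 healthy spleen arrays carry BALB/c in some label fields, but their H2-Ea level (6.61 to 6.93) lay with the other C57BL/6 arrays and below the 9.35 to 13.05 of all BALB/c arrays. The defining markers of the enrichment were present throughout, with Itgam, which encodes CD11b, at 9.15 to 11.61. The lowest Itgam value was that of the third C26-GM tumor array. Ptprc, which encodes the leukocyte protein CD45, was lower than in healthy BALB/c spleen in C26-GM and in 4T1 tumors. The log2 differences were -1.21 ± 0.11 (SE, limma adjusted p = 1.52e-09) and -1.20 ± 0.11 (1.74e-09). Ptprc was lower by less than 2-fold in C26-GM spleens (-0.55 ± 0.11) and fresh marrow (-0.71 ± 0.11). Against C57BL/6 spleen it was lower in EL-4 (-0.72 ± 0.11) and MCA203 tumors (-0.62 ± 0.11), also under 2-fold.

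Il6 was high in cells of 3 of the 4 tumors and low everywhere else. Its log2 level was 9.14, 9.25 and 9.22 in the 3 4T1 tumor arrays and 8.71, 7.99 and 8.52 in C26-GM tumors, against 4.09, 3.55 and 4.44 in healthy BALB/c spleen. Both tumor groups lay far above the spleen values without overlap. Cells of EL-4 tumors had 8.47, 8.91 and 7.30 and cells of MCA203 tumors 4.90, 5.67 and 4.43, against 4.53, 4.21 and 3.89 in healthy C57BL/6 spleen. Only EL-4 stood clear of its spleen group, while the MCA203 values overlapped it. Spleen cells of the C26-GM mice, at 4.20, 4.34 and 4.22, lay within the range of healthy BALB/c spleen.

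The limma test, adjusted over all 18194 genes (Benjamini-Hochberg), called a gene changed where the difference was at least 2-fold and the adjusted p under 0.05. Relative to spleen, Il6 rose by 5.18 ± 0.35 (SE, log2, 36.2-fold, adjusted p = 7.58e-12) in 4T1 tumors. The log2 rise was 4.38 ± 0.35 in C26-GM tumors (20.8-fold, adjusted p = 1.84e-10) and 4.01 ± 0.35 in EL-4 tumors (16.2-fold, adjusted p = 1.35e-09). In MCA203 tumors the log2 difference was 0.79 ± 0.35 and did not pass (limma adjusted p = 0.112), although it was 1.07 with an adjusted p of 0.049 without the third MCA203 array. In the spleens of C26-GM mice it was 0.23 ± 0.35 (adjusted p = 0.752). Without the third C26-GM arrays, one of which had shortened RNA, the Il6 rise in C26-GM tumors was 4.32 ± 0.41 (adjusted p = 1.1e-08).

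Direct tests between groups gave the same order. Within C26-GM mice, Il6 was 17.8-fold higher in tumor than in spleen cells (log2 4.15 ± 0.35, limma adjusted p = 1.97e-09). Cells of EL-4 tumors had 9.36-fold more Il6 signal than cells of MCA203 tumors (log2 3.23 ± 0.35, adjusted p = 2.24e-07). The 4T1 arrays lay above the C26-GM tumor arrays without overlap, by 0.80 ± 0.35, which missed the threshold (adjusted p = 0.081), but passed when arrays were weighted by quality (1.04, adjusted p = 0.00259). In rank order the mean Il6 level ran from 9.20 ± 0.06 (SD, n = 3) in 4T1 tumors through 8.41 ± 0.38 in C26-GM tumors and 8.23 ± 0.83 in EL-4 tumors to 3.73 ± 0.15 in fresh marrow. Apart from the step between EL-4 tumors and the GM-CSF+IL-6 cultures (5.11 ± 0.73), the neighbours below 4T1 overlapped, except GM-CSF+G-CSF cultures (4.67 ± 0.39), which lay above C26-GM spleen (4.26 ± 0.08).

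**Figure D1:**
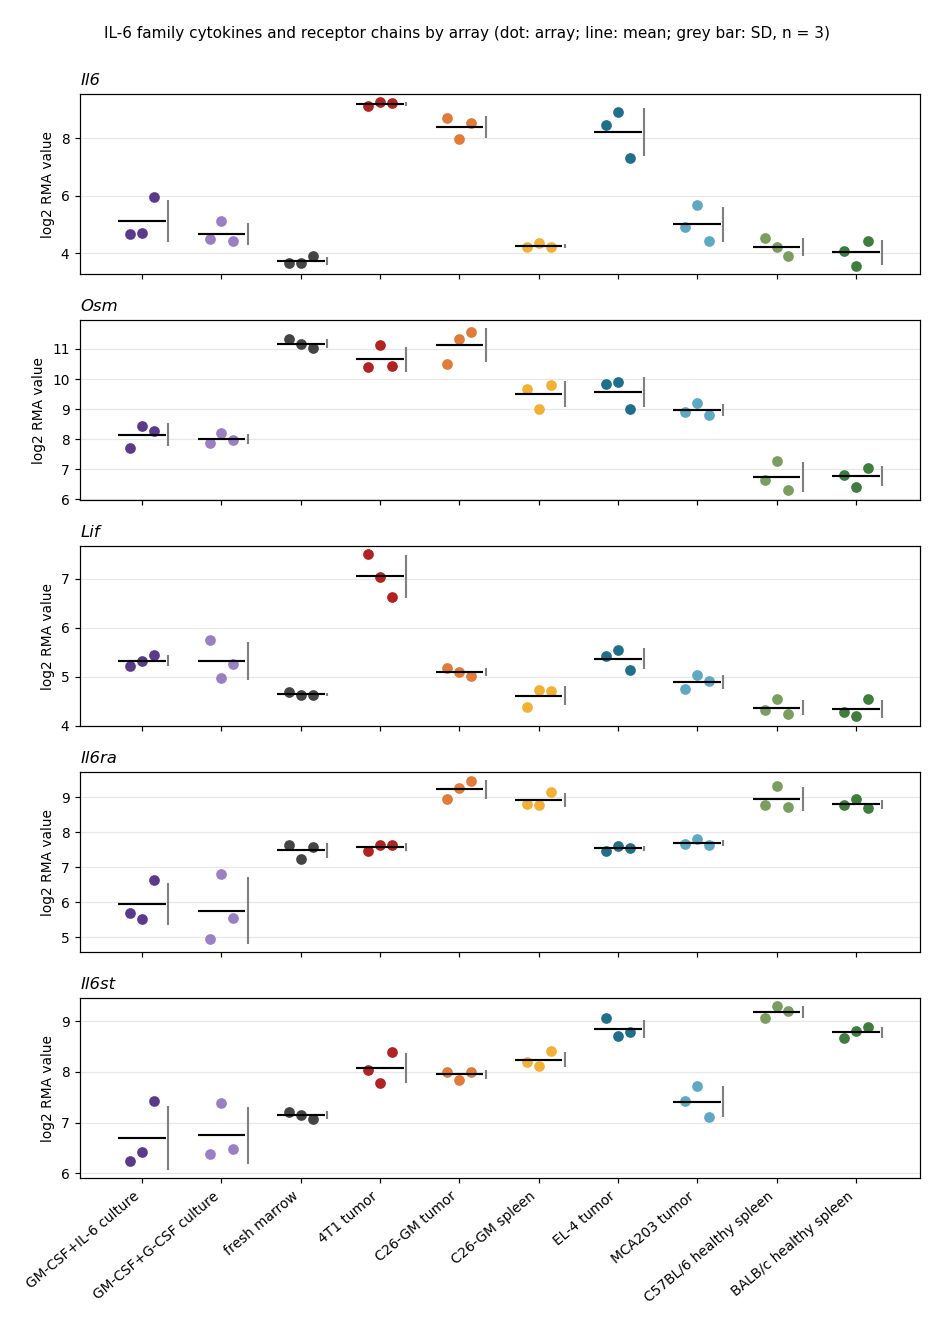
Log2 RMA level of the 5 genes on each array, by group (dot: 1 array; line: mean; grey bar: SD, n = 3). Il6 stood above 7 in 4T1, C26-GM and EL-4 tumor cells and below 6 in every other group, Osm was lowest in both healthy spleens, and Lif was highest in 4T1 tumor cells.

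Osm rose in every group of tumor-bearing mice. In BALB/c models its log2 level was 10.50, 11.34 and 11.57 in C26-GM tumors, 10.39, 11.14 and 10.44 in 4T1 tumors and 9.68, 8.999 and 9.80 in C26-GM spleens, against 6.83, 6.41 and 7.06 in healthy BALB/c spleen. It was 9.82, 9.90 and 9.002 in EL-4 tumors and 8.89, 9.19 and 8.80 in MCA203 tumors, against 6.65, 7.28 and 6.30 in healthy C57BL/6 spleen. No array of a tumor-bearing mouse overlapped its spleen reference. The log2 rise was 4.37 ± 0.29 (limma adjusted p = 5.99e-12) in C26-GM tumors, 3.89 ± 0.29 (6.01e-11) in 4T1 tumors and 2.73 ± 0.29 (1.25e-07) in C26-GM spleens. It was 2.83 ± 0.29 (2.93e-08) in EL-4 tumors and 2.22 ± 0.29 (1.53e-06) in MCA203 tumors. C26-GM tumor cells also exceeded C26-GM spleen cells, by 1.64 ± 0.29 (adjusted p = 0.000211). Without the third C26-GM arrays the Osm rise was 4.15 ± 0.32 in C26-GM tumors and 2.58 ± 0.32 in C26-GM spleens, and both passed the test.

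Healthy spleen was the low end for Osm, not a common baseline. Fresh marrow had 11.34, 11.15 and 11.03, against 6.83, 6.41 and 7.06 in healthy BALB/c spleen, a log2 difference of 4.41 ± 0.29 (21.2-fold, limma adjusted p = 7.61e-12). Its mean of 11.17 ± 0.15 (SD, n = 3) was the highest of the 10 groups and overlapped C26-GM tumors (11.13 ± 0.56), which overlapped 4T1 tumors (10.65 ± 0.42). EL-4 tumors, C26-GM spleens and MCA203 tumors followed between 9.57 and 8.96 with neighbours overlapping, then both cultures at 8.15 ± 0.38 (GM-CSF+IL-6) and 8.02 ± 0.17 (GM-CSF+G-CSF), and last the spleens of healthy BALB/c (6.76 ± 0.33) and C57BL/6 mice (6.74 ± 0.50).

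Lif changed in 4T1 tumors. Its log2 level there was 7.50, 7.03 and 6.62, against 4.27, 4.20 and 4.56 in healthy BALB/c spleen, a rise of 2.71 ± 0.19 (6.53-fold, limma adjusted p = 1.22e-11). C26-GM tumors had 5.17, 5.09 and 5.02, so that 4T1 exceeded C26-GM tumors by 1.96 ± 0.19 (adjusted p = 7.85e-09). The EL-4 arrays, at 5.43, 5.54 and 5.14 against 4.33, 4.55 and 4.24 in healthy C57BL/6 spleen, lay just under the 2-fold line with a difference of 0.9992 (adjusted p = 0.000192). That value rose to 1.12 without the third EL-4 array and to 1.09 without the second C57BL/6 spleen array, both past the line. The difference was 0.75 ± 0.19 in C26-GM tumors (adjusted p = 0.00348) and 0.53 ± 0.19 in MCA203 tumors (adjusted p = 0.0405), each under 2-fold. A second Lif probe set, 1450160_at, stayed between 3.69 and 4.60 on all 30 arrays and did not carry the 4T1 rise (0.43 ± 0.17, adjusted p = 0.0575).

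The receptor chain gene Il6ra was lower in cells of 3 tumors and was not called in C26-GM tumors. Its log2 level was 7.46, 7.65 and 7.63 in 4T1 tumors and 8.95, 9.26 and 9.48 in C26-GM tumors, against 8.78, 8.94 and 8.69 in healthy BALB/c spleen. It was 7.46, 7.61 and 7.55 in EL-4 tumors and 7.67, 7.80 and 7.64 in MCA203 tumors, against 8.79, 9.33 and 8.72 in healthy C57BL/6 spleen. The 4T1, EL-4 and MCA203 arrays were thus below every spleen array. Il6ra fell by 1.23 ± 0.30 in 4T1 (limma adjusted p = 0.00269), by 1.41 ± 0.30 in EL-4 (0.000768) and by 1.25 ± 0.30 in MCA203 tumors (0.00271). In C26-GM tumors every array lay above the spleen arrays, by 0.42 ± 0.30 on average, which did not pass (adjusted p = 0.316), and 4T1 was lower than C26-GM tumors by 1.65 ± 0.30 (adjusted p = 0.000112).

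The size of the Il6ra difference depended on the probe set. With the other one, 1422270_a_at, the log2 difference was -0.71 in 4T1, -0.50 in EL-4 and -0.55 in MCA203 tumors, each in the same direction but under 2-fold, with limma adjusted p-values of 0.0474, 0.193 and 0.141. The lower level in 4T1 than in C26-GM tumors was -0.86 with this probe set (adjusted p = 0.013). Without the third C26-GM arrays, which include the array with shortened RNA, that difference was -1.29 with 1422270_a_at (adjusted p = 3.46e-05) and -1.53 with 1452416_at (adjusted p = 0.00133), so both probe sets called it.

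Il6st, the shared signalling chain, fell in MCA203 tumors and was not called in EL-4 tumors. Its log2 level was 7.42, 7.72 and 7.10 in MCA203 and 9.05, 8.71 and 8.79 in EL-4 tumors, against 9.05, 9.29 and 9.19 in healthy C57BL/6 spleen. MCA203 cells were below both other groups without overlap, while EL-4 reached into the spleen range. The fall in MCA203 was 1.76 ± 0.24 on the log2 scale (0.295 of the spleen level, limma adjusted p = 2.95e-06). Of the other probe sets 1437303_at (-2.28) and 1460295_s_at (-1.48) called it too, and 1421239_at did not (-0.71, adjusted p = 0.0806). Cells of EL-4 tumors exceeded those of MCA203 tumors by 1.44 ± 0.24 (adjusted p = 0.000131), and each of the 3 other Il6st probe sets called this difference too, at 1.15 to 1.82.

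In BALB/c models the Il6st level was 7.9999, 7.84 and 8.003 in C26-GM tumors, 8.04, 7.79 and 8.40 in 4T1 tumors and 8.20, 8.12 and 8.41 in C26-GM spleens, against 8.67, 8.80 and 8.87 in healthy BALB/c spleen. All 3 groups lay below the healthy spleens, but under 2-fold, with log2 differences of -0.83 ± 0.24 (limma adjusted p = 0.0114), -0.70 ± 0.24 (0.0332) and -0.54 ± 0.24 (0.159). For C26-GM tumors the probe sets 1437303_at (-1.48, adjusted p = 7.62e-05) and 1460295_s_at (-1.37, adjusted p = 0.0299) passed the 2-fold line. Without the third C26-GM arrays the first still passed (-1.21, adjusted p = 0.00169), and the second did not (-0.58, adjusted p = 0.364). In EL-4 tumors 1437303_at gave -1.09 (adjusted p = 0.00225) where 1460295_s_at gave 0.34 and 1421239_at gave 0.44, so the direction against spleen was not settled.

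**Figure D2:**
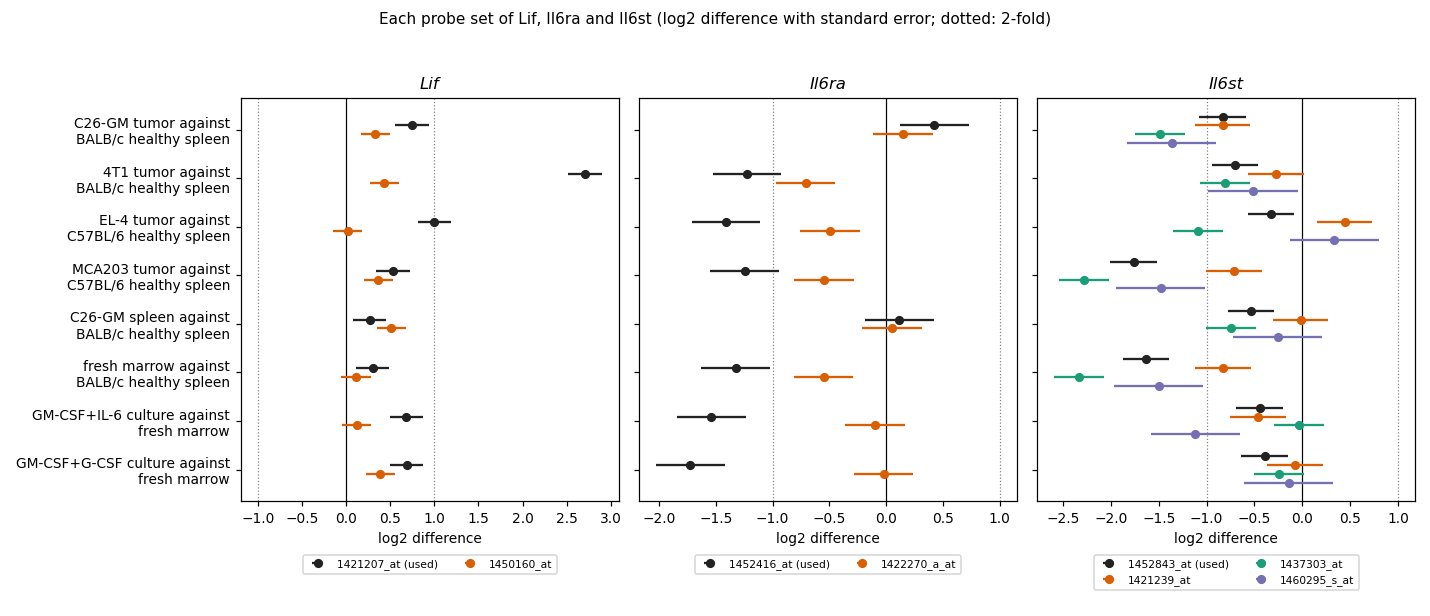
Log2 difference (point) and standard error (bar) of every probe set of Lif, Il6ra and Il6st in 8 comparisons; dotted lines mark 2-fold. Black points are the probe sets used for the main values; the other Lif probe set is at 0.43 in 4T1 tumors and the other Il6ra probe set stays inside 2-fold throughout.

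Counted over the 5 genes, 4 changed in 4T1 tumors (3 rose, 1 fell), where 12.3% of all genes changed (6.83% rose, 5.44% fell). In C26-GM tumors 2 of 5 rose, where 11.4% of all genes changed (4.26% rose, 7.13% fell). EL-4 tumors had 3 changed members (2 rose, 1 fell), where 10.8% of all genes changed (6.42% rose, 4.4% fell). MCA203 tumors had 3 (1 rose, 2 fell), where 10.4% changed (5.01% rose, 5.42% fell). In C26-GM spleens 1 of 5 rose, where 6.14% of all genes changed (2.32% rose, 3.83% fell). Between C26-GM tumor and spleen 2 of 5 were higher in tumor, where 6.16% differed (2.79% higher, 3.36% lower). Between 4T1 and C26-GM tumors 1 was higher and 1 lower in 4T1, where 12.9% differed (8.95% higher, 3.9% lower). Between EL-4 and MCA203 tumors 2 were higher in EL-4, where 5.28% differed (3.88% higher, 1.4% lower). Healthy C57BL/6 and BALB/c spleens differed in 0 of 5 by limma, where 1.4% of all genes did (0.654% higher, 0.742% lower in C57BL/6), and 0 of 5 had an unadjusted p below 0.05.

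**Figure D3:**
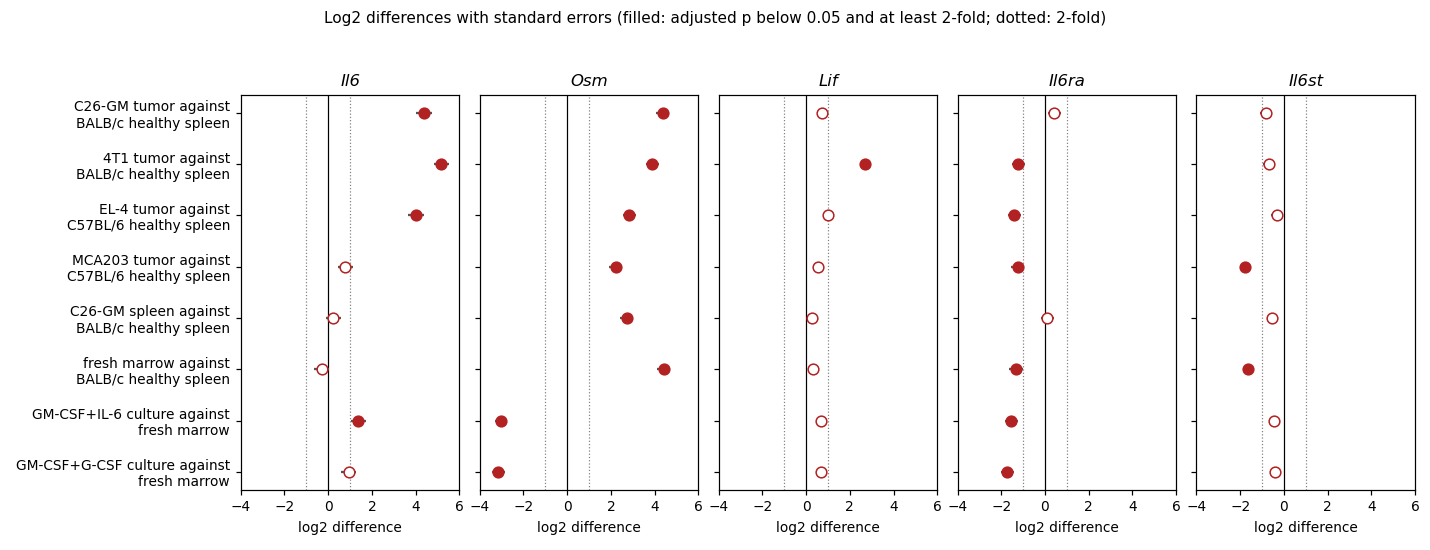
Log2 difference with standard error of each gene in 8 comparisons (filled: adjusted p below 0.05 and at least 2-fold; open: not changed; dotted lines: 2-fold). Il6 and Osm rose in 4T1, C26-GM and EL-4 tumors; in MCA203 tumors Osm rose, Il6 was not called, and Il6ra and Il6st fell.

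Markers of other cells also differed between tumor and spleen groups. Epithelial markers rose in 6 of 7 cases in 4T1 and 6 of 7 in EL-4 tumors, in 3 of 7 in MCA203 and in 1 of 7 (Cdh1) in C26-GM tumors. The mean log2 level of the 7 was 8.07 to 8.59 in 4T1 and 5.55 to 5.70 in C26-GM tumor arrays, against 4.62 to 4.74 in healthy BALB/c spleen, and 6.22 to 9.37 in EL-4 and 5.83 to 6.67 in MCA203 tumors, against 4.43 to 4.58 in healthy C57BL/6 spleen. In C26-GM tumors Cdh1 rose by 5.66 ± 0.47, and the other 6 epithelial markers differed by -0.60 to 0.72 and were not called. Cdh1 also rose in C26-GM spleens (3.40 ± 0.47). Against fresh marrow it rose in GM-CSF+IL-6 (6.06 ± 0.47) and GM-CSF+G-CSF cultures (4.77 ± 0.47). The keratins Krt8, Krt18 and Krt19 were not called in C26-GM spleens or in either culture. Fibroblast markers rose in 6 of 9 cases in 4T1, 6 of 9 in EL-4, 5 of 9 in MCA203 and 4 of 9 in C26-GM tumors, and 1 of 9 fell in each of 4T1 and C26-GM. Their mean level was 6.90 to 7.41 in 4T1 and 5.40 to 5.96 in C26-GM tumors, against 5.09 to 5.35 in BALB/c spleen, and 6.37 to 6.73 in EL-4 and 5.71 to 6.49 in MCA203 tumors, against 4.37 to 4.52 in C57BL/6 spleen. Of 6 endothelial markers, Emcn rose in every tumor group. The rise was 2.23 ± 0.32 in 4T1, 1.18 ± 0.32 in C26-GM, 2.44 ± 0.32 in EL-4 and 1.49 ± 0.32 in MCA203 tumors. Cdh5 also rose in EL-4 tumors (1.56 ± 0.29), and Vwf was lower in C26-GM tumors (-1.20 ± 0.41). No other endothelial marker was called in a tumor group against spleen.

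The myeloid makeup differed as well. Granulocyte markers fell in 8 of 8 cases in EL-4 and in MCA203 tumors, to mean levels of 6.55 to 7.65 and 6.36 to 6.75, against 12.12 to 12.29 in C57BL/6 spleen, and in 5 of 8 in 4T1 and 3 of 8 in C26-GM tumors (1 of 8 rose in C26-GM). T cell markers rose in 5 of 8 cases in EL-4 and in MCA203 tumors (1 of 8 fell in MCA203). They fell in 5 of 8 cases in 4T1 and in C26-GM tumors. Monocyte and macrophage markers fell in 6 of 9 cases in C26-GM tumors and 4 of 9 in C26-GM spleens, to mean levels of 9.29 to 9.63 and 10.15 to 10.35, against 11.29 to 11.36 in BALB/c spleen. They rose in 2 of 9 cases in 4T1, 2 of 9 in EL-4 (1 fell) and 3 of 9 in MCA203 tumors.

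B cell markers fell in 4 of 5 cases in each tumor group and in C26-GM spleens. Their mean level was 5.05 to 5.28 in C26-GM tumors, 5.20 to 5.61 in 4T1 tumors and 5.99 to 6.16 in C26-GM spleens, against 8.25 to 8.52 in BALB/c spleen. It was 7.63 to 7.76 in EL-4 and 5.92 to 6.08 in MCA203 tumors, against 8.95 to 9.23 in C57BL/6 spleen. In EL-4 against MCA203 tumors, where Il6 and Il6st were higher, 3 of 5 B cell markers were higher too, among them Ms4a1 by 4.26 ± 0.37 (19.1-fold, limma adjusted p = 3.02e-09). The part of other cells, of the loss of granulocytes or of sex-linked differences in the results for the 5 genes was not tested, and in these bulk samples fewer cells of a type and less RNA per cell cannot be told apart.

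The tumor effect on Il6 and Osm was larger in the BALB/c than in the C57BL/6 models. The C57BL/6 effect (mean of EL-4 and MCA203 less C57BL/6 spleen) minus the BALB/c effect (mean of C26-GM and 4T1 tumors less BALB/c spleen) was -2.38 ± 0.43 for Il6 (limma adjusted p = 0.000402) and -1.61 ± 0.36 for Osm (0.00393). The Il6 effect was 2.40 in C57BL/6 and 4.78 in BALB/c models, and the Osm effect 2.52 and 4.13. For Lif the difference was -0.96 ± 0.23 (adjusted p = 0.0073), just under 2-fold, and for Il6ra (-0.93, adjusted p = 0.155) and Il6st (-0.28, adjusted p = 0.789) it did not pass. With the other Lif probe set it was -0.19 (adjusted p = 0.786). The Lif rise in C26-GM tumors (0.75) was also below that in EL-4 tumors (0.9992), so the BALB/c effect on Lif was mainly that of 4T1. This made 2 of 5 genes, both lower, where 4.93% of all genes differed (2.83% higher, 2.11% lower). Each strain carried its own tumors, so strain and tumor cannot be told apart, and the Il6 value rests on a C57BL/6 pair in which EL-4 and MCA203 differed by 9.36-fold.

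Among the other ligands of the family, 4 of 7 listed genes were measured (Il11, Ctf1, Clcf1 and Ebi3), and few changed. Ebi3, a subunit of interleukin-27 and interleukin-35, fell in 4T1 tumors to 8.32 ± 0.18, against 9.47 ± 0.04 in BALB/c spleen (SD, n = 3, log2 difference -1.15 ± 0.21, limma adjusted p = 0.000127). Clcf1, a cytokine that acts through the CNTF receptor, fell in MCA203 tumors to 5.29 ± 0.31, against 6.50 ± 0.15 in C57BL/6 spleen (log2 difference -1.21 ± 0.31, adjusted p = 0.00435). None of the 4 changed in C26-GM spleens, C26-GM tumors or EL-4 tumors.

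The partner receptors moved differently from Il6ra. Lifr, the LIF receptor chain, had a log2 level of 10.15 ± 0.35 in C26-GM spleens, against 7.77 ± 0.11 in healthy BALB/c spleen (SD, n = 3), a rise of 2.39 ± 0.27 (limma adjusted p = 3.11e-07). In C26-GM tumors it was 7.10 ± 0.17, lower than in C26-GM spleens by 3.06 ± 0.27 (adjusted p = 4.84e-09). Osmr, the oncostatin M receptor chain, rose in 4T1 tumors to 5.61 ± 0.56, against 3.85 ± 0.16 in BALB/c spleen (1.76 ± 0.27, adjusted p = 8.61e-06). In EL-4 tumors Osmr rose by 1.03 ± 0.27 (adjusted p = 0.00464), but by 0.57 (adjusted p = 0.12) after centring on housekeeping genes, and by 0.97 and 0.88 without the third C57BL/6 spleen or the first EL-4 array. Some fibroblast and epithelial markers were raised in every tumor group, though in C26-GM tumors the only epithelial one was Cdh1. The part of other cells in the Osmr results was not tested. Il27ra, which pairs with gp130 for interleukin-27, was lower in C26-GM tumors than in C26-GM spleens by 1.42 ± 0.20 (adjusted p = 9.54e-06).

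The signal transducers changed little. Of 9 measured, 1 rose in each BALB/c model and 0 in the C57BL/6 models. It was in each case Gab1, an adaptor that links gp130 to the MAP kinase and PI3 kinase pathways, which rose by 1.52 ± 0.18 in 4T1 tumors (limma adjusted p = 1.54e-07), 1.31 ± 0.18 in C26-GM spleens (4.91e-06) and 1.07 ± 0.18 in C26-GM tumors (3.71e-05; 0.86 without the first C26-GM tumor array, under 2-fold). Jak2 fell by 1.29 ± 0.17 in EL-4 (1.75e-06) and 1.39 ± 0.17 in MCA203 tumors (4.74e-07). Stat3, Jak1 and Tyk2 were not called in any tumor or tumor-spleen group against healthy spleen.

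The list of feedback inhibitors and STAT3 targets, 15 genes, moved upward more than downward. In C26-GM tumors 8 of 15 rose and 0 fell, with a list median of 1.20 against 0.11 for all genes. The counts were 6 up and 2 down in 4T1 (median 0.47 against -0.01), 5 and 1 in EL-4 (0.77 against 0.02), 5 and 1 in MCA203 (0.51 against 0.14) and 4 and 1 in C26-GM spleens (0.50 against 0.09). Socs3 itself rose by 1.79 ± 0.33 in C26-GM tumors (11.92 ± 0.38, against 10.13 ± 0.23 in spleen, limma adjusted p = 0.000156), by 1.60 ± 0.33 in 4T1 (0.00052) and by 1.60 ± 0.33 in MCA203 tumors (0.000593). MCA203 had raised Socs3 without a called rise of Il6, and EL-4, with Il6 raised, had a Socs3 difference of 0.92 ± 0.33 (adjusted p = 0.0434), under 2-fold. The EL-4 value was 1.34 with the mean of all Socs3 probe sets and 1.69 without those that may cross-hybridise, both past the line, and 1.05 and 1.08 without the first C57BL/6 spleen or the third EL-4 array.

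Other genes of that list are known to answer other cytokines as well. Cish, a SOCS family member known as a STAT5 target, rose by 4.46 ± 0.18 in C26-GM tumors (adjusted p = 4.44e-16), 3.03 ± 0.18 in C26-GM spleens (3.32e-12), 1.71 ± 0.18 in 4T1 (3.68e-08), 1.59 ± 0.18 in EL-4 (1.83e-07) and 1.33 ± 0.18 in MCA203 tumors (2.82e-06) by limma. Socs1, an inhibitor of JAK kinases, rose by 3.19 ± 0.34 in C26-GM tumors, 2.44 ± 0.34 in EL-4 and 1.42 ± 0.34 in MCA203 tumors. Bcl2l1, an anti-apoptotic gene, rose by 3.17 ± 0.13 in C26-GM tumors (adjusted p = 7.03e-16). Cebpd, a C/EBP factor that IL-6 induces in liver, fell by 1.66 ± 0.23 in 4T1 and 1.58 ± 0.23 in MCA203 tumors, but by 0.99 and 0.80 with the mean of its probe sets, under 2-fold.

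**Figure D4:**
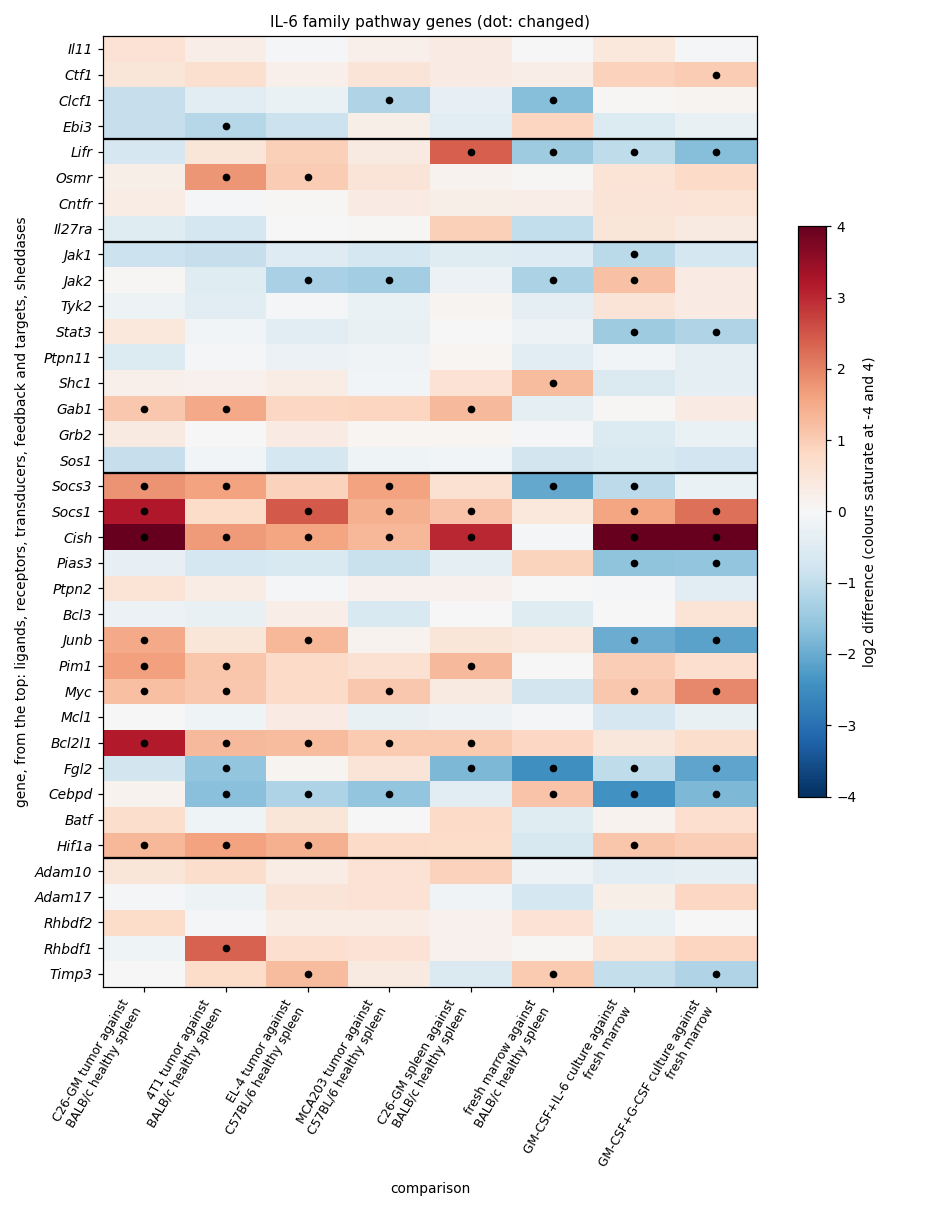
Log2 differences of 37 other genes of the pathway (rows, from ligands at the top to sheddases at the bottom) in 8 comparisons (columns), red higher and blue lower, with colours saturating at 4; dots mark changed genes. Cish rose in all tumor and culture columns, Lifr rose in C26-GM spleen alone of the tumor-bearing groups, and Stat3 fell in the cultures alone.

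A list of 11 measured genes held those known to induce, repress or destabilise the Il6 transcript, directly or through a mediator. Cebpb, the C/EBP factor first described through its binding to the human IL6 promoter, had a log2 level of 13.14 ± 0.10 in C26-GM tumors, 11.61 ± 0.32 in 4T1 tumors and 12.18 ± 0.14 in C26-GM spleens, against 10.53 ± 0.05 in BALB/c spleen (SD, n = 3). It rose by 2.62 ± 0.17 in C26-GM tumors (limma adjusted p = 4.65e-12), 1.65 ± 0.17 in C26-GM spleens (8.42e-08) and 1.09 ± 0.17 in 4T1 tumors (1.91e-05; 0.90 without the second 4T1 array). C26-GM spleens had raised Cebpb with no called difference of Il6, and in MCA203 tumors neither was called (Cebpb -0.16 ± 0.17, adjusted p = 0.564). In EL-4 tumors Cebpb was higher by 0.88 ± 0.17 (adjusted p = 0.000327), under 2-fold, or 1.03 without the second C57BL/6 spleen array.

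Ptgs2 and Atf3 had the largest differences of the list in cells of 4T1, EL-4 and MCA203 tumors. Ptgs2, the prostaglandin synthase COX-2, rose by 3.26 ± 0.50 in 4T1, 3.07 ± 0.50 in EL-4, 2.55 ± 0.50 in MCA203 and 1.97 ± 0.50 in C26-GM tumors (limma adjusted p = 9.98e-06, 2.88e-05, 0.000291 and 0.00359). In C26-GM spleens it fell by 2.94 ± 0.50 (adjusted p = 0.0001), together with the cytokine Il1b (-1.85 ± 0.26) and the IL-6 inducing NF-kB cofactor Nfkbiz (-1.08 ± 0.29, or -0.82 without the second C26-GM spleen array). Atf3, a repressor of Il6 in mouse macrophages, rose by 3.17 ± 0.26 in 4T1, 3.46 ± 0.26 in EL-4 and 3.20 ± 0.26 in MCA203 tumors. The counts over the list were 4 of 11 up in C26-GM tumors, 3 in 4T1, 2 in EL-4 and 3 in MCA203, with 0 down in each, and 1 up and 3 down in C26-GM spleens.

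Of 5 genes of Il6ra shedding, the proteases Adam10 and Adam17 did not pass the 2-fold line in any tumor or tumor-spleen group. Rhbdf1, a partner protein that matures Adam17, rose in 4T1 tumors to 7.37 ± 0.19, against 5.00 ± 0.25 in BALB/c spleen (SD, n = 3, 2.37 ± 0.37, limma adjusted p = 1.15e-05). Timp3, an inhibitor of Adam17, rose in EL-4 tumors by 1.26 ± 0.27 (adjusted p = 0.000854), or by 0.80 after centring on housekeeping genes and 0.82 with the mean of its probe sets.

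In the cultures Osm was lower than in fresh marrow, and Il6ra was lower on 1 of its 2 probe sets. Il6 lay above fresh marrow in both cultures. In the main fit it passed the 2-fold line with IL-6 only, but this depended on the narrow and wide arrays. Osm had 7.72, 8.45 and 8.28 in GM-CSF+IL-6 and 7.88, 8.21 and 7.97 in GM-CSF+G-CSF cultures, against 11.34, 11.15 and 11.03 in fresh marrow. Every culture array lay over 2 log2 units below every marrow array, and the fall was 3.02 ± 0.29 with IL-6 (limma adjusted p = 9.82e-09) and 3.16 ± 0.29 with G-CSF (4.78e-09). Monocyte and macrophage markers averaged 7.72 to 8.08 with IL-6 and 7.53 to 7.77 with G-CSF, against 9.04 to 9.34 in fresh marrow. Granulocyte markers averaged 12.50 to 12.61 with IL-6 and 12.50 to 12.60 with G-CSF, against 13.27 to 13.31 in fresh marrow, and their part in the culture results was not tested. The wide culture arrays (8.21 to 8.28) lay within the Osm range of the narrow ones (7.72 to 8.45). Il6 had 4.66, 4.71 and 5.95 with IL-6 and 4.48, 5.11 and 4.41 with G-CSF, against 3.65, 3.64 and 3.91 in fresh marrow. Apart from 5.95, all of these values lay below 5.12, the level used to leave out dim genes. The part of such dim signal in the Il6 difference was not tested. The 4 narrow arrays had Il6 at 4.41 to 4.71 and the 2 wide ones at 5.11 and 5.95. The Il6 rise of 1.37 ± 0.35 with IL-6 (adjusted p = 0.00317) rested on the third array of that culture, its wide one. Without that array the rise was 0.95 (adjusted p = 0.021), under 2-fold. With G-CSF the difference was 0.93 ± 0.35 (adjusted p = 0.0372), also under 2-fold. It was 1.38 from the wide array alone and 1.58 with a term for the culture array set.

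Il6ra had 5.68, 5.50 and 6.64 with IL-6 and 4.93, 6.81 and 5.53 with G-CSF, against 7.62, 7.23 and 7.59 in fresh marrow. It fell by 1.54 ± 0.30 (limma adjusted p = 0.000242) and by 1.72 ± 0.30 (6.33e-05). The 4 narrow arrays had 4.93 to 5.68 and the 2 wide ones 6.64 and 6.81, and from the wide arrays alone the difference was -0.84 with IL-6 and -0.67 with G-CSF, each under 2-fold. With the probe set 1422270_a_at there was almost no difference (-0.10 and -0.02). Il6st followed the same split, with 6.25 to 6.48 on narrow and 7.39 to 7.42 on wide arrays, against 7.21, 7.16 and 7.06 in fresh marrow, and its differences of -0.45 and -0.39 did not pass. Lif was higher by 0.68 ± 0.19 and 0.69 ± 0.19 (adjusted p = 0.00596 and 0.00584), under 2-fold. Its values were dim too, at 4.62 to 4.68 in fresh marrow and 4.98 to 5.75 in the cultures, around or below the level of 5.12.

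This made 3 of 5 genes changed with IL-6 (1 rose, 2 fell), where 14.1% of all genes changed (5% rose, 9.07% fell). It made 2 of 5 with G-CSF (both fell), where 13.9% changed (4.48% rose, 9.37% fell). Between the cultures 0 of 5 differed by limma, where 0.654% of all genes did (0.456% higher, 0.198% lower), and 0 of 5 had an unadjusted p below 0.05. With IL-6 minus G-CSF as the direction, the transcripts of the receptor chains for the added IL-6 differed by 0.19 ± 0.30 for Il6ra and by -0.05 ± 0.24 for Il6st (adjusted p = 1 for both).

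Downstream in the cultures, Cish rose by 4.71 ± 0.18 with IL-6 and 4.54 ± 0.18 with G-CSF (limma adjusted p = 2.2e-16 and 3.74e-16). Stat3 fell by 1.41 ± 0.21 and 1.19 ± 0.21, or by 0.93 and 0.64 from the wide arrays alone. The mRNA-destabilising protein gene Zfp36 fell by 3.30 ± 0.26 and 2.95 ± 0.26, Nfkbiz fell by 3.10 ± 0.29 and 3.28 ± 0.29, and Ptgs2 fell by 4.23 ± 0.50 and 4.63 ± 0.50. The feedback list had 4 up and 5 down of 15 with IL-6 and 3 up and 4 down with G-CSF, and the list of Il6 regulators 0 up with 5 and 4 down of 11. Socs3 was 7.03 ± 0.98 with IL-6 and 7.83 ± 0.75 with G-CSF, against 8.09 ± 0.15 in fresh marrow (SD, n = 3), a fall of 1.06 ± 0.33 with IL-6 (adjusted p = 0.0141) that was absent from its wide array (0.07). Jak2 rose with IL-6 by 1.18 ± 0.17 (adjusted p = 5.39e-06), or by 0.99 with array weights.

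Marrow and spleen of healthy BALB/c mice differed in 3 of 5 genes (1 higher, 2 lower in marrow), where 13.3% of all genes did (5.76% higher, 7.49% lower). Beside Osm, Il6st was lower in fresh marrow, at 7.21, 7.16 and 7.06, against 8.67, 8.80 and 8.87 in spleen (-1.63 ± 0.24, limma adjusted p = 6.06e-06), but 1421239_at gave -0.83 (adjusted p = 0.033), under 2-fold. Il6ra was lower too, at 7.62, 7.23 and 7.59, against 8.78, 8.94 and 8.69 (-1.32 ± 0.30, adjusted p = 0.00115), or -0.55 with 1422270_a_at. Socs3 was lower by 2.04 ± 0.33 (adjusted p = 2.15e-05), Clcf1 by 1.71 ± 0.31 (8.43e-05) and Lifr by 1.41 ± 0.27 (0.000176), the last by 0.62 with the mean of its probe sets. Granulocyte markers averaged 13.27 to 13.31 in marrow and 12.05 to 12.24 in spleen, and monocyte and macrophage markers 9.04 to 9.34 in marrow and 11.29 to 11.36 in spleen.

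Over the 30 arrays, each gene's pattern was set beside all others, as a description of arrays that share the same 10 groups. The Il6 pattern was most like those of the oxygen-sensing hydroxylase Egln3 (Pearson r = 0.92), the transcription factor Maff (0.917), the lipid droplet protein gene Hilpda (0.916), the glucose transporter Slc2a1 (0.901) and the growth factor Hbegf (0.899). Osm was most like the kinase Plk3 (0.921), the pseudokinase Trib1 (0.868), Fam221a (0.834), the transcription factor Klf6 (0.823) and Lhfpl2 (0.823). Lif was most like the signalling inhibitor Spry1 (0.933), the integrin chain Itgb4 (0.926), Amotl1 (0.92), Dcbld2 (0.906) and Apbb2 (0.9). Il6ra was most like the non-coding Dleu2 (0.961), Tdrd7 (0.958), Tspan13 (0.948), Phf3 (0.945) and the adhesion receptor Adgre5 (0.941). Il6st was most like the stress sensor Ern1 (0.923), the cytokine Clcf1 (0.923), Aasdh (0.918), heme oxygenase Hmox1 (0.909) and the kinase Mertk (0.9). None of the 5 genes was among the most alike of another.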

How the data were processed

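CD11b+ cells were profiled on 30 Affymetrix MOE430 2.0 arrays, 3 in each of 10 groups taken from the labels. The deposited values are log2 intensities that the authors made with RMA, per the submitters' processing notes, whose version the sources used here do not give. RMA is meant to equalise the overall distribution of the arrays, which removes a shift shared by most genes. The deposited distributions were not equal, with array medians between 4.85 and 5.15 and interquartile ranges between 2.54 and 3.47. The number of arrays limits the precision.

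Of 45101 probe sets, 34958 had 1 gene symbol, 932 several and 9211 none. Each of 18194 genes was read from its brightest probe set on average, and 18146 symbols were in the RefSeq table. All groups were fitted together in limma 3.58.1 (R 4.3.3, lmFit and eBayes, 20 residual degrees of freedom, no block), with Benjamini-Hochberg adjustment over all genes of each of 14 comparisons. A gene changed where the adjusted p was below 0.05 and the difference at least 2-fold. The fit was tested on simulated data. Figures were drawn with matplotlib 3.10.9. Whether the 3 arrays of a group came from separate animals is not given, so p-values measure only the spread between these samples, which may be technical.

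The 5 genes and the gene lists were chosen with earlier results of these data known. Besides the 5 genes, the text names changed list genes, the 4 with the largest difference at most per list and comparison, and always Socs3 and Cebpb. Pattern likeness is the Pearson correlation over 30 arrays. Alternatives were other scalings, probe set rules, filters, thresholds, variance models, array weights, a replicate block and leaving out each array in turn. Added after seeing the data were the fits without the third C26-GM arrays, by narrow or wide culture arrays (a lone array per arm being assumed to vary like the other groups), with a term for the culture array set and with each other probe set. The raw scanner files were not used here.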

Additional observations from a re-analysis of the deposited data

Results flagged for a closer look

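The response of 2 genes to tumors differed between the strains by a direct test of that difference in limma. For Il6 the C57BL/6 effect less the BALB/c effect was -2.38 ± 0.43 (log2, adjusted p = 0.000402), with effects of 2.40 in C57BL/6 and 4.78 in BALB/c models. For Osm it was -1.61 ± 0.36 (adjusted p = 0.00393), with effects of 2.52 in C57BL/6 and 4.13 in BALB/c models. The tumor lines differ between the strains, so strain and tumor cannot be told apart.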

How the results depend on the processing

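The replicate numbers did not pair the samples: the correlation of same-numbered deviations ran from -0.85 to 0.788, and in 0 of 13 comparisons was every one above 0.1. With the replicate number as a block, the log2 difference of Il6 was 4.38 in C26-GM tumors and the counts of changed members were the same in all 14 comparisons. Of the list genes, 2 of 448 calls or directions changed with the block. The number of members changed moved in several comparisons. It was, for example, 4 without a minimum fold in C26-GM tumors and in GM-CSF+G-CSF cultures, 1 in those cultures with the mean of all probe sets, and 4 for the strain difference after centring on housekeeping genes. Without a minimum fold, Il6st was also called in 4T1 tumors. Lif was then called in EL-4 tumors, MCA203 tumors, GM-CSF+IL-6 cultures and the strain difference. That centring shifted the median of all genes by -0.46 in EL-4, -0.23 in 4T1 and -0.23 in MCA203 tumors. With it the share of changed genes that were higher was 22.9% in place of 59.3% in EL-4, 39.3% in place of 55.7% in 4T1, 30.4% in place of 48% in MCA203 tumors, 26% in place of 37.7% in C26-GM spleens, 58% in place of 69.7% for 4T1 against C26-GM tumors, 44.2% in place of 73.5% for EL-4 against MCA203 tumors and 40.5% in place of 57.3% for the strain difference. The mean of the probe sets put the Il6ra differences of 4T1, EL-4 and MCA203 tumors, both cultures and fresh marrow between -0.97 and -0.82. These were under 2-fold and no longer called. The Il6st difference of C26-GM tumors was then -1.13, past 2-fold and called. Il6 in GM-CSF+G-CSF cultures passed with the wide arrays (1.38) or a term for the array set (1.58), and in GM-CSF+IL-6 cultures fell short with array weights (0.96). The strain difference passed for Lif after housekeeping centring (-1.14), with array weights (-1.05) and without single arrays (up to -1.07), and for Il6ra after housekeeping centring (-1.11). With the other Lif probe set the Lif strain difference was -0.19 and did not pass. Except where given, the cause was not tested.

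Signs turned in differences that did not pass the test, except Socs3 in GM-CSF+IL-6 cultures. In C26-GM spleens Il6ra was -0.0357 with housekeeping centring, -0.0062 without the third C26-GM arrays and -0.0062 to 0.184 without single arrays, and Il6 -0.0107 to 0.434 without single arrays. Other probe sets gave 0.34 and 0.44 for Il6st in EL-4 tumors, 0.37 and 0.42 for its strain difference, -0.18 for Lif between C26-GM tumor and spleen, -0.35 for Lif and 0.054 for Il6ra between EL-4 and MCA203 tumors, and -0.0919 for Il6ra between healthy spleens. In the cultures against fresh marrow Il6st was 0.28 (IL-6) and 0.25 (G-CSF) from the wide arrays and 0.24 and 0.29 with a term for the array set. Between the cultures Lif was 0.0426 with housekeeping centring and 0.45 from the wide arrays, Il6ra -0.17 from the wide arrays and -0.0738 with its other probe set, and Il6st 0.0322 from the wide arrays and 0.22 with 1437303_at. Without single arrays, Osm ran from -0.0158 to 0.346 there, Lif from -0.18 to 0.205, Il6ra from -0.228 to 0.71 and Il6st from -0.413 to 0.268. Between 4T1 and C26-GM tumors Il6st was -0.0029 with housekeeping centring, -0.0611 with quantile normalisation and -0.0325 to 0.271 without single arrays. Between healthy spleens Osm was 0.0061 with housekeeping centring, and without single arrays Il6 ran from -0.0537 to 0.391, Osm from -0.292 to 0.202, Lif from -0.0631 to 0.131, Il6ra from -0.0487 to 0.256 and Cebpb from -0.0847 to 0.161. Socs3 was 0.073 in GM-CSF+IL-6 cultures from the wide array, and in GM-CSF+G-CSF cultures 0.60 from the wide array, 0.73 with the term and 0.23 without cross-hybridising probe sets, which gave 0.0159 between EL-4 and MCA203 tumors.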
